A study of Homo sapiens with 4 samples.

Results

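The protein genes of the small nucleolar ribonucleoproteins (snoRNPs) were examined in cells depleted of LAS1L. The 10 genes were picked by name as known snoRNP proteins, with earlier results of these data already known: FBL, NOP56, NOP58 and SNU13 (also called NHP2L1) of the box C/D particles, DKC1, NHP2, NOP10 and GAR1 of the box H/ACA particles, and the assembly factors NAF1 and NOLC1. They are 10 of 20046 annotated gene symbols and are read by 21 of the 47323 probes on the array, and every one is reported. The cells were HCT116, an established human colorectal carcinoma line, transfected with 40 nM siRNA and harvested at 72 h. There were 2 arrays of cells given a control siRNA (replicates 1 and 2) and 2 arrays of cells given an siRNA against LAS1L, 1 with siRNA #1 and 1 with siRNA #2. Nothing in the labels says that the control arrays came from separate cultures, so their spread may be technical, and the spread between the Las1L arrays also holds any difference between the siRNAs.

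The siRNAs against LAS1L are shown because they define the depleted group and differ from each other. Each is 19 RNA bases with a 2-base deoxythymidine overhang, and the labels do not say which strand is written.

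Las1L siRNA #1: cugauacgcuguaagcucu
Las1L siRNA #2: cauuuauacccagagugga

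SnoRNPs chemically modify ribosomal RNA in the nucleolus, and some are needed for its cleavage. Box C/D particles carry the 2′-O-methyltransferase fibrillarin, and box H/ACA particles carry the pseudouridine synthase dyskerin. Each is guided by a small nucleolar RNA, which in human cells is mostly cut from an intron of a host transcript. LAS1L acts later on the same ribosomal RNA, as an endonuclease in processing of the second internal spacer for the large ribosomal subunit. The comparison asked whether transcripts of the modification machinery differ when this processing factor is depleted.

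Transcripts of the box C/D scaffold proteins NOP56 and NOP58 and of the chaperone NOLC1 were lower on both Las1L arrays, at 66.8% to 81.5% of the control mean for the probes that passed. A further NOP56 probe, at 88.5% and 89% of the control mean, did not pass. These passes are from the intensity-trend fit described below, and none held without the trend. SNU13 was read in opposite directions by a pair of its probes, at 64.5% and 64.7% of the control mean on one and at 122% and 129.2% on the other. FBL and the 4 H/ACA core genes, DKC1, NHP2, NOP10 and GAR1, differed by 0.17 or less on the log2 scale on each of their 12 probes, and 0 of those probes passed. The 21 probes exceeded the background limit of 28.1 signal units on all 4 arrays, so all were tested.

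Values are the authors' normalized signals, and fold changes are differences of mean log2 signal, Las1L siRNA minus control siRNA. The tests used limma, fitted on all 17689 probes above the background limit on at least 2 arrays, with Benjamini-Hochberg adjustment over these at 0.05. Without an intensity trend the fit passed 0 of 17689 probes (0%), of which 4266 (24.1%) had an unadjusted p under 0.05, and 0 of the 21 snoRNP probes, of which 4 had. With an intensity trend, where the prior variance follows the mean signal, it passed 2798 probes (15.8%), 1436 higher (8.12%) and 1362 lower (7.7%). Here "rose" and "fell" mean past the threshold in this trend fit, and none of these calls held without the trend or without either Las1L array. Standard errors and 95% intervals are from the trend fit and rest mostly on variance shared across probes.

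By that rule 5 of the 21 snoRNP probes fell and 1 rose, together 28.6% beside 15.8% of all tested probes. That 15.8% includes probes that were not above background on all 4 arrays, as the 21 were. Fitted only on the 14455 probes above it on all 4, the trend fit passed 3151 of them, and 7 of the 21. The 6 probes that fell or rose by the rule above belong to 4 genes, and probes of a gene share their target. In the box C/D core 4 of 8 probes fell and 1 rose, in the box H/ACA core 0 of 11 passed, and of the 2 assembly factors 1 fell. Both Las1L arrays lay below both controls on 11 of the 21 probes, beside 27.9% of all tested probes, and above both on 1, beside 28%. The groups thus did not overlap on 12 of 21, beside 55.8% of all tested probes. The median log2 fold change was -0.07 over the 21 probes and 2e-04 over all tested probes. It was -0.23 for box C/D, -0.057 for box H/ACA and -0.51 for the assembly factors.

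**Figure D1:**
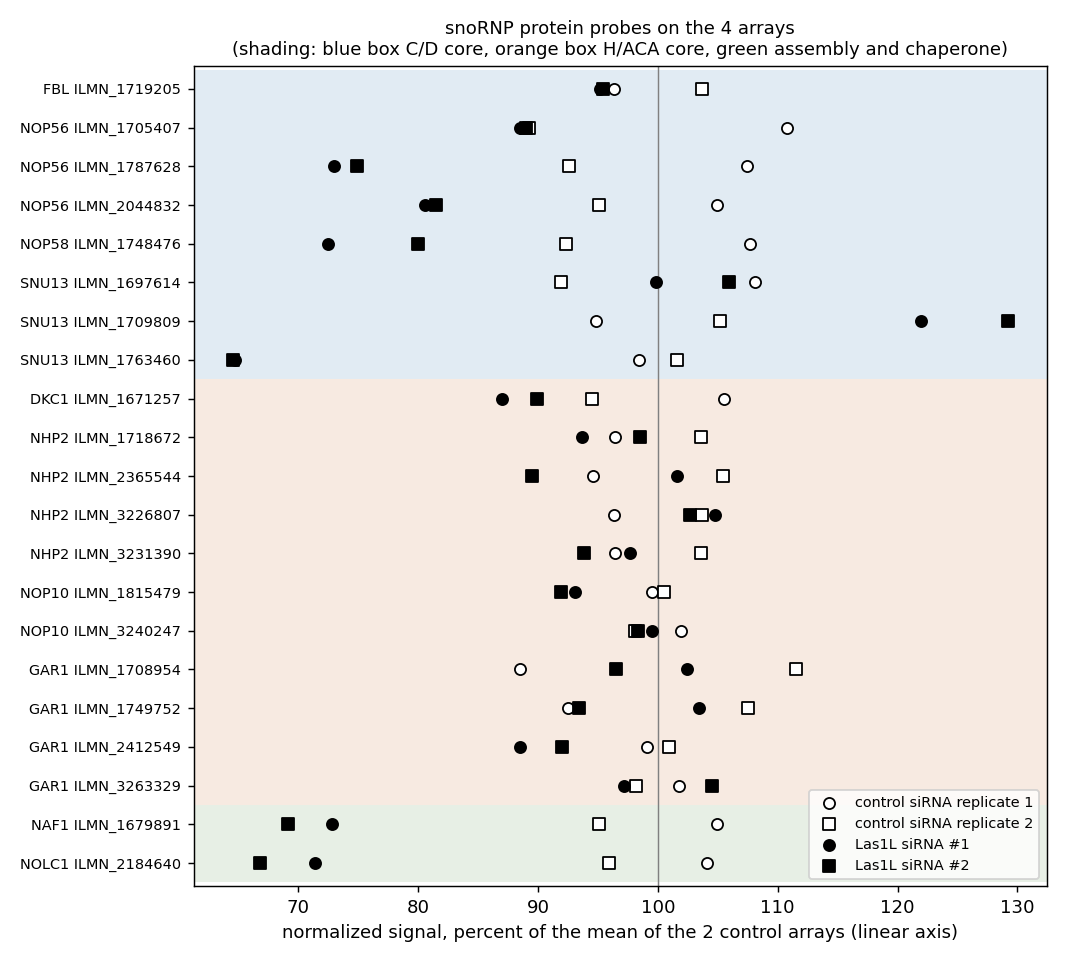
Normalized signal of every snoRNP probe on each of the 4 arrays, as a percent of the mean of the 2 control arrays (linear axis), with open symbols for control siRNA, filled symbols for Las1L siRNA and shading by class. Filled symbols lie left of both open ones on 11 probes: FBL, the 3 of NOP56, NOP58, SNU13 ILMN_1763460, DKC1, NOP10 ILMN_1815479, GAR1 ILMN_2412549, NAF1 and NOLC1. They lie right of both on SNU13 ILMN_1709809.

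The depletion itself was read by 1 probe and was present with each siRNA. The LAS1L probe (ILMN_1774890) gave 770 and 717.5 units on the control arrays, 211.5 on the siRNA #1 array and 158.1 on the siRNA #2 array, a log2 fold change of -2.02 (SE 0.14). Its adjusted p in limma was 2.3e-07 with the trend and 0.0555 without it. Log2 signals over the tested probes correlated at 0.985 between the control arrays, at 0.987 between the Las1L arrays and at 0.974 to 0.975 across the groups. Of 11 epithelial and colorectal markers 7 were above background on all 4 arrays, EPCAM, KRT8, KRT18, KRT19, CDH1, CLDN7 and CDX2, while KRT20, CLDN4, VIL1 and LGALS4 were above it on none. In the trend fit of limma 3 of their probes passed, 1 of 2 for KRT18 (ILMN_1730848, log2 fold change -0.57, adjusted p = 0.0301), CDH1 (log2 fold change 0.43, adjusted p = 0.033) and CLDN7 (log2 fold change 0.35, adjusted p = 0.0214). No probe of EPCAM, KRT8, KRT19 or CDX2 passed, where 15.8% of all tested probes did. The part of these markers in the results was not tested. Of 14 fibroblast, endothelial and leukocyte markers 1, CD68, was above background on all 4. On their best probe COL1A1, CD14 and LYZ were above it on 3 arrays, COL1A2 on 2 and DCN on 1, and the others on none.

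NOP56 and NOP58 are the paralogous scaffold proteins that hold fibrillarin on a box C/D guide RNA. The NOP56 probe ILMN_1787628 gave 6985 and 6022 units on the control arrays, 4747 on the siRNA #1 array and 4870.1 on the siRNA #2 array. Both Las1L values lay below both controls, by more than the controls differed from each other. It fell by 0.43 (SE 0.09, 95% interval -0.63 to -0.23), with an adjusted p in limma of 0.00467 with the trend and 0.167 without it. A second probe (ILMN_2044832) gave 1854 and 1680.5 units on the control arrays, 1424 on the siRNA #1 array and 1440 on the siRNA #2 array. It too was lower on both Las1L arrays and fell by 0.30 (SE 0.10, adjusted p = 0.0408 with the trend and 0.235 without). The third (ILMN_1705407) gave 1196 and 962.1 units on the control arrays, 954.6 on the siRNA #1 array and 960.8 on the siRNA #2 array. On this probe control replicate 2 was almost at the level of the Las1L arrays, and the log2 fold change of -0.16 (95% interval -0.40 to 0.07) did not pass. All 3 NOP56 probes are annotated to the same transcript, and on each of them control replicate 1 was the highest array.

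The single NOP58 probe (ILMN_1748476) gave 3650.5 and 3130 units on the control arrays, 2459 on the siRNA #1 array and 2712 on the siRNA #2 array. The Las1L values lay below both controls, at 72.5% and 80% of the control mean. It fell by 0.39 (SE 0.10, 95% interval -0.60 to -0.18), with an adjusted p in limma of 0.0135 with the trend and 0.208 without it. Control replicate 1 was the highest array here too. Without control replicate 1 the fold change was -0.28 for NOP58 (adjusted p = 0.141) and -0.32 and -0.23 for the NOP56 probes ILMN_1787628 and ILMN_2044832 (adjusted p = 0.0618 and 0.2), and none of these passed. Without control replicate 2 NOP56 ILMN_2044832 alone of the 6 calls was lost (adjusted p = 0.0522).

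FBL encodes fibrillarin, the methyltransferase itself. Its probe (ILMN_1719205) gave 5249.9 and 5652 units on the control arrays, 5187 on the siRNA #1 array and 5200 on the siRNA #2 array. The Las1L arrays were just below control replicate 1, and the gap between the controls was wider than that between the groups. The log2 fold change was -0.069, with a 95% interval of -0.25 to 0.11 and an adjusted p in limma of 0.661. Unequal change within the particle was examined as the log2 ratio of a pair of probes on each array. The ratio of NOP56 ILMN_1787628 to FBL was 0.41 and 0.09 on the control arrays, -0.13 with siRNA #1 and -0.09 with siRNA #2. That of NOP58 to FBL was -0.52 and -0.85 on the control arrays, -1.08 with siRNA #1 and -0.94 with siRNA #2. Both were lower on both Las1L arrays, with mean differences (Las1L minus control) of -0.36 and -0.32. The other NOP56 probes gave smaller differences against FBL, at -0.23 for ILMN_2044832, also with both Las1L arrays below both controls, and -0.09 for ILMN_1705407, where the groups overlapped. The exact 2-sided permutation p was 0.333, the smallest that 2 arrays against 2 can give, for each ratio but the last, where it was 1. The size of any change relative to FBL thus differed with the NOP56 probe.

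SNU13 encodes a small RNA-binding protein, which binds the kink-turn of box C/D RNAs first and also sits on U4 RNA of the spliceosome. Its 3 probes did not move together. The probe ILMN_1763460 gave 4901 and 5063 units on the control arrays, 3225 on the siRNA #1 array and 3214 on the siRNA #2 array. The groups were far apart beside the spread within each, and it fell by 0.63 (SE 0.09, 95% interval -0.81 to -0.45). Its adjusted p in limma was 1.3e-04 with the trend and 0.0804 without it, the lowest among the 21 probes in both fits. On probes above background on all 4 arrays, where the fit with no trend passed 1267 of 14455 (8.77%), it was the single snoRNP probe that passed (adjusted p = 0.0346). It was also the single snoRNP probe that passed the trend fit without control replicate 1.

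The probe ILMN_1709809 went the other way, with 1212 and 1345 units on the control arrays, 1560.1 on the siRNA #1 array and 1651 on the siRNA #2 array. Both Las1L arrays were above both controls, and it rose by 0.33 (SE 0.10, 95% interval 0.12 to 0.54), with an adjusted p in limma of 0.0309 with the trend and 0.218 without it. This call was lost without control replicate 1 (log2 fold change 0.26, adjusted p = 0.172). The third probe (ILMN_1697614) gave 1211 and 1029 units on the control arrays, 1118 on the siRNA #1 array and 1186 on the siRNA #2 array, all within the range of the controls. Its log2 fold change was 0.04 (95% interval -0.18 to 0.27, adjusted p = 0.839). The platform annotation assigns ILMN_1709809 to transcript NM_005008 and the other 2 probes to NM_001003796, so the probes that disagreed include a pair with the same transcript. With 1 probe lower, 1 higher and 1 that did not pass, no single direction is given for SNU13 as a gene.

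**Figure D2:**
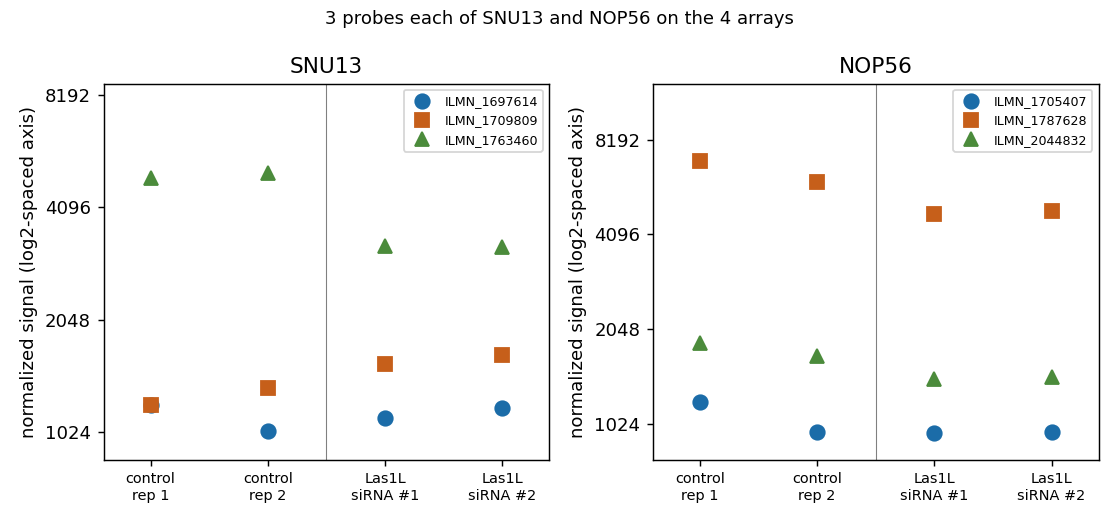
Normalized signal (log2-spaced axis) of the 3 SNU13 probes and the 3 NOP56 probes on each array. The SNU13 probe ILMN_1763460 is lower on both Las1L arrays while ILMN_1709809 is higher, and the NOP56 probes lie lowest on the Las1L arrays, with control replicate 2 close to them for ILMN_1705407.

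Dyskerin, encoded by DKC1, is the pseudouridine synthase of box H/ACA particles and is also bound to telomerase RNA. Its probe (ILMN_1671257) gave 3799.9 and 3407 units on the control arrays, 3137 on the siRNA #1 array and 3240.4 on the siRNA #2 array. Both Las1L values lay below both controls, but the difference between groups was about that between the controls. The log2 fold change was -0.17 (95% interval -0.37 to 0.02, adjusted p in limma 0.217 with the trend and 0.467 without it). Among the 11 H/ACA core probes it was the largest in size.

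NHP2, a protein of the H/ACA core related in sequence to SNU13, was read by 4 probes with log2 fold changes of -0.07 to 0.05, and the groups overlapped on each. The probe ILMN_3231390 gave 5054 and 5428 units on the control arrays, 5118 on the siRNA #1 array and 4916 on the siRNA #2 array. The probe ILMN_1718672 gave 2467.5 and 2650.4 units on the control arrays, 2397 on the siRNA #1 array and 2521 on the siRNA #2 array, a log2 fold change of -0.057. The lowest array differed from probe to probe: siRNA #1 on ILMN_1718672, siRNA #2 on ILMN_2365544 and ILMN_3231390, and control replicate 1 on ILMN_3226807. The adjusted p in limma was 0.701 to 0.762 over the 4 probes.

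NOP10, the smallest core protein, which contacts dyskerin, had a probe with the groups apart and one with the groups overlapping. ILMN_1815479 gave 6752 and 6815 units on the control arrays, 6319 on the siRNA #1 array and 6233 on the siRNA #2 array. The Las1L arrays were lower by more than the spread within either group, but the log2 fold change was small at -0.11 (95% interval -0.29 to 0.07) and missed the threshold (adjusted p = 0.416 in the trend fit of limma). ILMN_3240247 gave 9522 and 9164 units on the control arrays, 9299 on the siRNA #1 array and 9186 on the siRNA #2 array, with a log2 fold change of -0.015.

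GAR1, the glycine- and arginine-rich protein that replaces NAF1 on the mature particle, had 4 probes with log2 fold changes of -0.15 to 0.01. The probe ILMN_2412549 gave 3643 and 3710.3 units on the control arrays, 3253 on the siRNA #1 array and 3381 on the siRNA #2 array. Here both Las1L arrays were below both controls, with a log2 fold change of -0.15 (95% interval -0.33 to 0.03, adjusted p = 0.274 in limma with the trend). On the other 3 GAR1 probes the groups overlapped and the adjusted p was 0.939 to 0.996. Over the 11 H/ACA core probes the 95% intervals of the trend fit ran no lower than -0.37 (DKC1) and no higher than 0.28 (GAR1 ILMN_1708954). Without the trend they reached -0.51 and 0.44 on the same probes. Each interval is for a single probe and rests on a control spread that may be technical, so they set no firm bound on an unseen change.

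**Figure D3:**
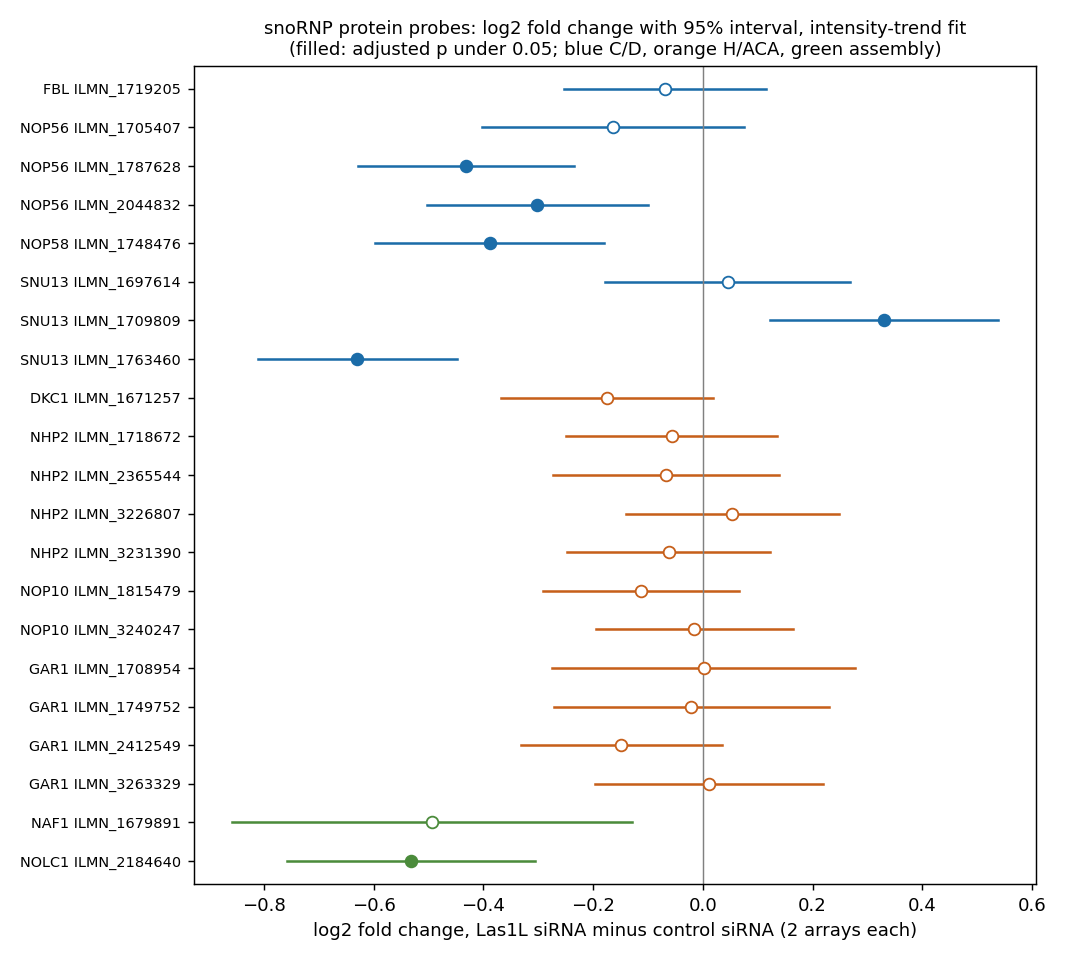
Log2 fold change (Las1L siRNA minus control siRNA, 2 arrays each) of every snoRNP probe with its 95% interval from the intensity-trend fit, filled where the adjusted p was under 0.05. The 6 filled points are 2 NOP56 probes, NOP58, 2 SNU13 probes on either side of 0, and NOLC1.

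NAF1 binds dyskerin during H/ACA assembly and is exchanged for GAR1 before the particle matures. Its probe (ILMN_1679891) gave 182.2 and 165.2 units on the control arrays, 126.5 on the siRNA #1 array and 120 on the siRNA #2 array. The groups were well apart, at 72.8% and 69.1% of the control mean, but this was the member signal nearest to the background limit, and its standard error was the widest of the 21. The log2 fold change was -0.49 (SE 0.17, 95% interval -0.86 to -0.13), short of the threshold (adjusted p = 0.063 in the trend fit of limma and 0.123 without it). It passed the trend fit of limma on probes above background on all 4 arrays (adjusted p = 0.0444), where 3151 of 14455 probes passed. Without the trend it did not pass on those probes either (adjusted p = 0.0639).

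NOLC1 (also called Nopp140), a heavily phosphorylated protein that binds both kinds of snoRNP and moves between nucleolus and Cajal bodies, had the second largest fall. Its probe (ILMN_2184640) gave 936.1 and 863.1 units on the control arrays, 642.2 on the siRNA #1 array and 601.3 on the siRNA #2 array. The Las1L arrays kept 71.4% and 66.8% of the control mean, well below both controls. It fell by 0.53 (SE 0.11, 95% interval -0.76 to -0.31), with an adjusted p in limma of 0.00284 with the trend and 0.11 without it. Without control replicate 1 the fold change was -0.47 and just missed the threshold (adjusted p = 0.0531). The log2 ratio of NOLC1 to DKC1 was -2.02 and -1.98 on the control arrays, -2.29 with siRNA #1 and -2.43 with siRNA #2, lower on both Las1L arrays by a mean difference of -0.36 (exact permutation p = 0.333, the smallest possible).

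Each siRNA was then set beside the controls alone. These comparisons share the control arrays, so their likeness is not independent support. With 1 array per siRNA the fit takes its residual spread from the 2 control arrays alone, which may be technical, and assumes that a Las1L array varies like them. Given for siRNA #1 first and siRNA #2 second, log2 fold changes were -0.45 and -0.41 for NOP56 ILMN_1787628, -0.46 and -0.32 for NOP58, and -0.49 and -0.58 for NOLC1. The SNU13 probe ILMN_1763460 had -0.63 with each, and ILMN_1709809 had 0.29 and 0.37. On these terms and with the trend, limma passed 0 of 17689 probes (0%) with siRNA #1 and 0 (0%) with siRNA #2, while 3094 and 3334 probes reached an unadjusted p of 0.05. Without the trend it also passed 0 for each. On probes above background on all 4 arrays the same trend fit passed 1860 (12.9%) for siRNA #1 and 2188 (15.1%) for siRNA #2. These included NOP56 ILMN_1787628, SNU13 ILMN_1763460 and NOLC1 with both siRNAs, and NOP58 with siRNA #1, all lower, but they measure single arrays against the spread of that pair and are no replicated test of either siRNA.

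Directly between the siRNAs, siRNA #1 minus siRNA #2, the 21 probes differed by -0.14 to 0.18 on the log2 scale. The ends of this range were NOP58 (95% interval -0.55 to 0.26) and NHP2 ILMN_2365544 (95% interval -0.18 to 0.54). Limma passed 0 of 17689 probes (0%) in this contrast, although 432 reached an unadjusted p of 0.05, 0 of them among the 21. It sets 1 array against 1, with intervals and p-values that again borrow the spread between the control arrays, so neither a difference nor a likeness of the siRNAs can be read from it.

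The genes differ in ways that the choice of members did not use. In the RefSeq annotation (GRCh38.p14) 3 of the 10 genes enclose small nucleolar RNA genes, 11 in all. NOP56 encloses 4 of the box C/D kind (SNORD110, SNORD86, SNORD56 and SNORD57) and 1 of the H/ACA kind (SNORA51). NOP58 encloses 4 box C/D genes (SNORD70, SNORD70B, SNORD11 and SNORD11B), and DKC1 encloses 2 H/ACA genes (SNORA36A and SNORA56). Of these 3 host genes NOP56 and NOP58 had probes that fell, and DKC1 did not. Of the genes that enclose none, SNU13 and NOLC1 also had a probe that fell, and FBL, NHP2, NOP10, GAR1 and NAF1 did not. A link between hosting and the falls was not tested. FBL, NOP56, NHP2 and NOLC1 also have pseudogenes named after them, 7 in all, and whether the probes also read their transcripts was not tested.

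Promoter sequence of 6 of the 10 genes was matched in the RefSeq table (GRCh38.p14), as the 250 bases before the annotated start. It was searched for CACGTG, the E-box bound by MYC-family factors, and for CCGGAA on either strand, the core of sites bound by ETS-family factors. CACGTG was found in 6.3% of all 35116 promoter windows and CCGGAA in 14.5%. NOP56, which fell, FBL, which did not pass, and NOP10, the 1 of the 6 searched genes with CACGTG, are shown in the direction of transcription with the matches in capitals. The windows are chr20:2652382-2652631 on the plus strand for NOP56, chr19:39846380-39846629 on the minus strand for FBL and chr15:34343137-34343386 on the minus strand for NOP10.

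NOP56: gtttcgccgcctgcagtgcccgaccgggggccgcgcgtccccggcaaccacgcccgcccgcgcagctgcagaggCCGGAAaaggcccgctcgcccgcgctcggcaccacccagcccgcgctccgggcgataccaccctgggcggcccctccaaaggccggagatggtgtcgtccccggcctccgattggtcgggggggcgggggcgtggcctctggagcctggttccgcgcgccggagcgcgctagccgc
FBL: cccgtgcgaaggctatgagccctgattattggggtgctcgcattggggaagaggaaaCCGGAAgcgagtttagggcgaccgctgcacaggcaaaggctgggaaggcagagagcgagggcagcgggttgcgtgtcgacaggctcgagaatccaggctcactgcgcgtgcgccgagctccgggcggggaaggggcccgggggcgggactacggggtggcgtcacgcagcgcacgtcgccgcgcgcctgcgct
NOP10: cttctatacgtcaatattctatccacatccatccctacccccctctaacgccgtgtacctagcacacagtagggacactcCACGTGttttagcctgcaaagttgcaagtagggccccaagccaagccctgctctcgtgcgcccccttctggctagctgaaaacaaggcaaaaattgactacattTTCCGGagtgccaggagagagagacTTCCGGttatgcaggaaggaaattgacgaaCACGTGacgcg

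NOP10 held CACGTG at 170 and 11 bases before its start and CCGGAA, read on the other strand, at 66 and 41. CCGGAA lay 176 bases before the start of NOP56, 193 before that of FBL and 27 before 1 of the 2 annotated starts of GAR1. DKC1 and NHP2 held neither motif in this window. NOP58, SNU13, NAF1 and NOLC1 were not searched.

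Genes that assemble or accompany snoRNPs were read from a list of 24, of which 23 had probes and 20 had at least 1 tested probe. Of 29 tested probes 5 fell and 1 rose, together 20.7% beside 15.8% of all tested probes, with a median log2 fold change of -0.0079. The 5 include an HSP90AA1 probe that was tested through its control arrays alone. For box C/D assembly, NUFIP1, an adaptor that brings SNU13 to the HSP90 machinery, gave 93.8 and 111.2 units on the control arrays, 56.6 on the siRNA #1 array and 43.3 on the siRNA #2 array on ILMN_2166686. Both Las1L arrays were near 50 units, and the probe fell by 1.04 (SE 0.26, adjusted p = 0.0107 in limma with the trend and 0.084 without). Its other probe (ILMN_1813800) had -0.78 and did not pass (adjusted p = 0.063). ZNHIT3, which stabilises NUFIP1, ZNHIT6, a C/D assembly factor, and NOPCHAP1, a NOP58 cofactor, had log2 fold changes of 0.04 to 0.17 on 5 probes, and none passed. The ATPases RUVBL1 and RUVBL2, which act with HSP90 in assembly, had -0.08 to 0.13 on 4 probes, and none passed. PIH1D1, a subunit of the R2TP complex they belong to, had 0.31 (adjusted p = 0.181). RPAP3 (ILMN_1766916), another subunit, named after its values were seen, had -0.31, with both Las1L arrays below both controls (adjusted p = 0.0683).

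SHQ1, a chaperone that holds dyskerin before H/ACA assembly, gave 256.6 and 275.6 units on the control arrays, 163 on the siRNA #1 array and 181.3 on the siRNA #2 array. Both Las1L arrays lay far below the controls, and it fell by 0.63 (SE 0.15, adjusted p = 0.00888 in limma with the trend and 0.0937 without). XPO1, an export receptor that also takes part in moving box C/D RNAs to the nucleolus, fell by 0.33 (SE 0.09, adjusted p = 0.0212). Coilin, the marker protein of Cajal bodies encoded by COIL, gave 984.3 and 1026 units on the control arrays, 1244 on the siRNA #1 array and 1293 on the siRNA #2 array. It was higher on both Las1L arrays and rose by 0.34 (SE 0.10, adjusted p = 0.0274). PRPF4, a U4/U6 snRNP protein of the spliceosome, fell by 0.53 (SE 0.10, adjusted p = 0.00133).

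Of the 3 HSP90AA1 probes, reading an HSP90 chaperone, 1 fell. That probe (ILMN_1687546) was dim, with 57.5 and 41.6 units with control siRNA and 20.3 and 9.3 with the Las1L siRNAs, both below the background limit. It was tested only because both control arrays exceeded that limit, so its call is no support for a fall. Set against the lowest signal above the limit, 28.1 units, the difference would be at least 1.74-fold, but this rests on 2 dim control values. The other HSP90AA1 probes (ILMN_1691097 and ILMN_2373515), above background on all 4 arrays, had log2 fold changes of -0.22 and -0.23 and did not pass. TERT, the telomerase reverse transcriptase, TCOF1, a partner of NOLC1, and FBLL1, a paralog of FBL, were above background on 0 of 4 arrays on every probe, and were named after their values were seen. The count of 6 in this list was 0 without the trend, 1 without control replicate 1, 2 without control replicate 2 and 0 without either Las1L array.

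**Figure D4:**
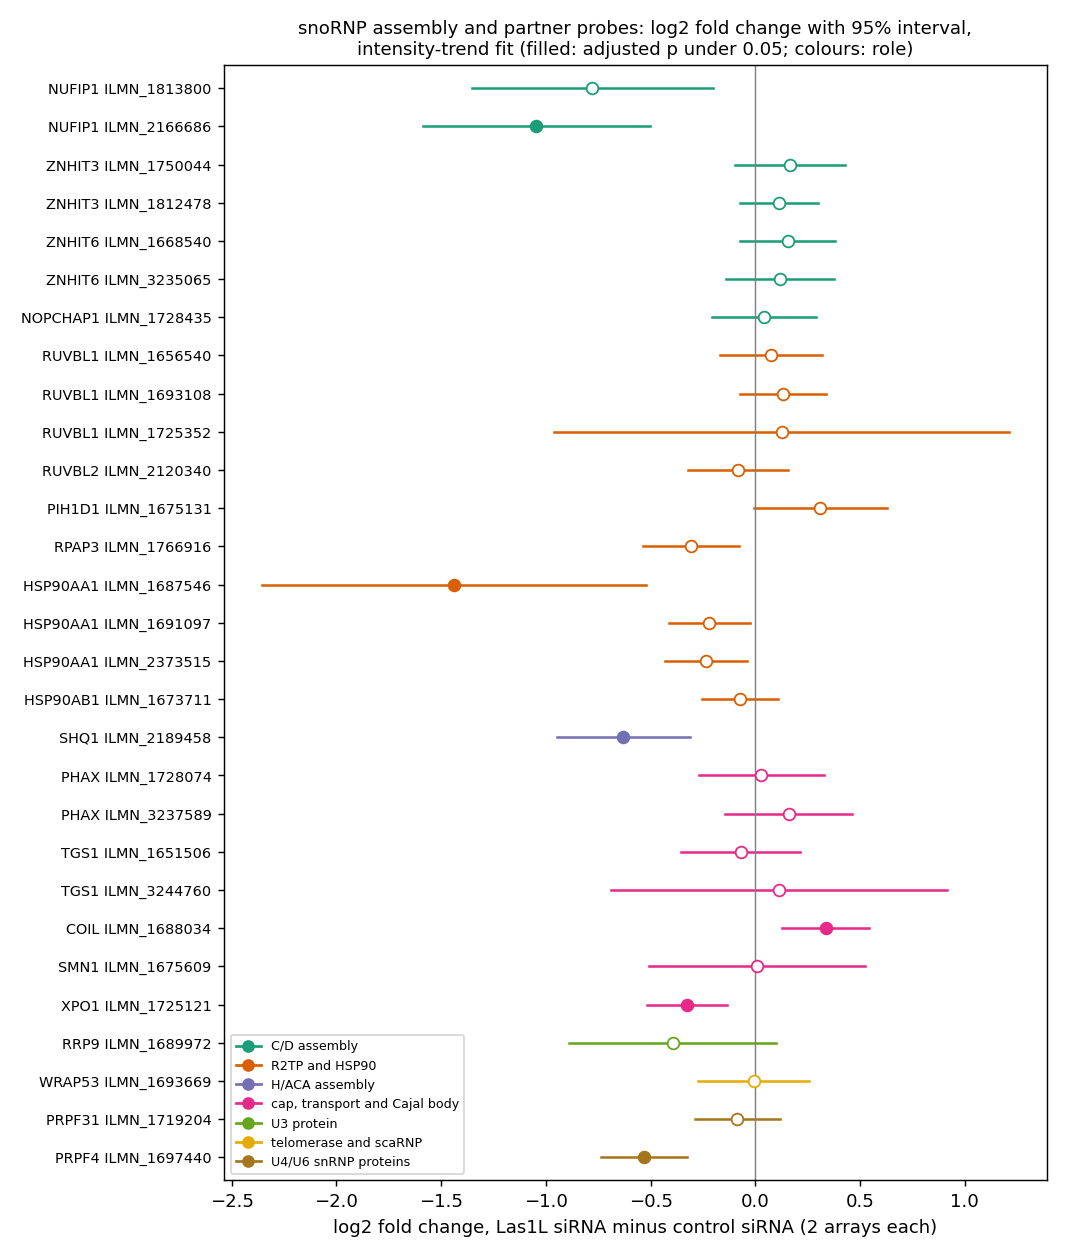
Log2 fold change (Las1L siRNA minus control siRNA, 2 arrays each) of the 29 tested probes of assembly and partner genes with 95% intervals from the intensity-trend fit, coloured by role and filled where the adjusted p was under 0.05. NUFIP1, HSP90AA1, SHQ1, XPO1 and PRPF4 each have a filled point left of 0, and COIL has one right of 0. The HSP90AA1 point rests on Las1L signals below the background limit and is no measure of its fold. They were 20.3 units with siRNA #1 and 9.3 with siRNA #2, the latter set to the floor of 16.

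For the enzymes FBL and DKC1 the genes with the nearest pattern were found from log2 values centred on each probe's mean over the 4 arrays. EMC6, PAF1 and CCT3 lay nearest to FBL, at Euclidean distances of 0.0068, 0.014 and 0.018 log2 units. C17orf58, NFKBIB and CREBBP lay nearest to DKC1, at 0.0096, 0.016 and 0.025. With 4 arrays and 17689 probes such close patterns are a description only.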

How the data were processed

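HumanHT-12 v4 bead arrays were read as normalized probe intensity on a linear scale, as the authors deposited it. GenomeStudio made the values, per the submitters' processing notes. Its version and settings are not stated in any source read here. The deposited intensity has a median of 14.9 and 26.9% of values below 0 on each array, so background had been subtracted and the arrays brought to a like distribution. A table with 8 further columns was not used because its column names match no label. The number of arrays limits the precision.

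Values under 16 were set to 16 before log2. The background limit of 28.1 is the one-sided 0.05 point of noise with a root mean square of 17.1 among values below 0, used in place of detection p-values. Probes above it on at least 2 of 4 arrays (17689 of 47323) were tested with limma 3.58.1 in R 4.3.3 (lmFit, eBayes), without and with an intensity trend, over 2 groups of 2 or over 3 groups. The prior weighed as 2.21 and 13.8 degrees of freedom against 2 residual. Both fits were run on simulated arrays whose independent noise followed the mean signal, as the trend fit assumes. That run checked the code and is no test of the calls on these arrays. Symbols came from a platform annotation updated through RefSeq (30113 probes with 1 symbol, 8 with several, 17202 with none). Members, lists and fits, the trend included, were chosen with earlier results of these data known. The rule named every member probe, partner genes past the trend fit and the first 6 in list order that did not pass. Alternatives changed the floor, offset, filter, background limit, trend, eBayes, pairing, threshold, centring or 1 array.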

Additional observations from a re-analysis of the deposited data

How the results depend on the processing

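The count of snoRNP probes past the threshold rests on the variance model. The fit with no trend gave 0. This became 6 once the trend was added, 1 when the floor was 50, 3 for an added offset of 64, 1 above background on all 4 arrays, 1 with a background limit at the 0.01 point and 1 at an adjusted p under 0.1. In each of these SNU13 ILMN_1763460 was among them. The trend fit gave 6. This became 0 when the floor was 50, 0 if every probe was tested and 0 if the trend was dropped, although the fold changes of these probes were the same there. It became 7 with the offset of 64, above background on all 4 arrays, with the 0.01 limit and at an adjusted p under 0.1. The added probe was that of NAF1. The trend count over all probes rose there too, from 2798 to 3161, 3151 (of 14455), 3128 and 3901, in that order. The snoRNP count stayed 6 with robust eBayes. Leaving out 1 array, and so testing fewer samples, gave 0 to 5. Over all probes the count of 0 without the trend became 226 with the floor of 50, 2239 with the offset, 28 if every probe was tested, 1267 for probes above background throughout, 865 with the 0.01 limit, 2798 with the trend and 1500 at an adjusted p under 0.1. The trend count of 2798 became 48 with the floor of 50, 0 with no filter and 0 without the trend, and 0 to 1495 without 1 array. The 6 calls among assembly and partner probes became 0 with the floor of 50, 0 with no filter, 0 without the trend and 0 to 2 without 1 array. The count of 0 snoRNP probes for each siRNA alone also moved with the offset and above background on all 4 arrays. The count over all probes moved in the latter setting too, and with a single array per siRNA nothing is read from either. Under the remaining alternatives on all 4 arrays, the trend count over all probes was 2908 to 3901 and that of assembly and partner probes 6 to 8. Why the floor and the filter move the calls was not tested.

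Leaving out 1 array turned the sign of 6 probes, none of which passed: SNU13 ILMN_1697614 (-0.0723 to 0.1621), NHP2 ILMN_2365544 (-0.1579 to 0.0246), NOP10 ILMN_3240247 (-0.043 to 0.0122) and GAR1 ILMN_1708954 (-0.1657 to 0.1687), ILMN_1749752 (-0.1293 to 0.0868) and ILMN_3263329 (-0.0414 to 0.064). The 6 probes that passed the trend fit kept their direction in every alternative run for them, but this could not come out otherwise. On each, both Las1L arrays lay on the same side of both controls, so leaving out 1 array could not turn the sign. The other alternatives kept that order of the arrays, so the unchanged direction is no support for the calls. Without 1 array the log2 fold change was between -0.65 and -0.61 for SNU13 ILMN_1763460 and between -0.59 and -0.47 for NOLC1. It was between -0.50 and -0.28 for NOP58 and between -0.54 and -0.32 for NOP56 ILMN_1787628. The numbers of the control replicates and of the siRNAs name different things, and deviations of same-numbered arrays correlated at 0.034. With the replicate block the trend fit passed 3278 probes and 6 snoRNP probes, and the fit without trend passed 0. Precision is limited by the 4 arrays.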
